A study of Homo sapiens with 18 samples.

Results

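The replication-type histone genes encode the linker histone H1 and the core histones H2A, H2B, H3 and H4 that package newly copied DNA. Their members were taken here by symbol, as protein-coding genes named H1-1 to H1-6 or named H2AC, H2BC, H3C or H4C with a number, and 69 of the 61860 genes in the count table fitted. Of these 55 lie in the histone cluster at 6p22, 11 at 1q21, 2 at 1q42 and 1, H4C16, at 12p12. By family they comprise 6 H1, 17 H2A, 18 H2B, 13 H3 and 15 H4 genes.

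The mRNAs of these genes are unusual among those of animal cells. Most end in a short stem-loop in place of a poly(A) tail, which is made by cleavage with the U7 small nuclear ribonucleoprotein, is bound by the stem-loop binding protein SLBP, and ties the life of the mRNA to DNA synthesis. Some of the same genes also give longer transcripts that run past the stem-loop to an ordinary poly(A) signal. Only RNA that bound oligo(dT) beads was sequenced here, so every count below concerns polyadenylated or otherwise captured transcripts. Stem-loop-ended histone mRNA was not measured as such, and counts per gene cannot tell whether any of it was captured.

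The cells were H1, an established human embryonic stem cell line (a cell line name unrelated to histone H1), transduced with lentivirus that carried GFP and either a negative control shRNA or an shRNA against NAT10, the RNA acetyltransferase that makes N4-acetylcytidine. GFP-positive cells of both genotypes were enriched and expanded under puromycin, and transcription was blocked with actinomycin D for 0, 1.5 or 3.5 h. Each genotype and time had 3 libraries, 18 in all, and the series asks whether transcript half-lives depend on the acetyl mark. Whether the 3 libraries of a group stem from different cultures is not in the labels, so the p-values reflect only how these samples spread, which may be technical. How many shRNA sequences or clones the knockdown cells stand for is not given either.

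Library totals ran from 15037492 to 15519197 counts, and the ERCC spike-in, added to purified RNA, took 0.08567% to 0.5442% of them. NAT10 lay between 209 and 250.0 CPM in the control libraries and between 17.2 and 24.1 CPM in the knockdown libraries. Pluripotency markers were abundant in every library, with summed levels of 9590 to 12300 CPM for 10 genes. The fibroblast markers DCN and LUM were at or near 0, but the 8 listed fibroblast markers were not absent as a set. At 0 h those 8 summed to 670 to 726 CPM in control and 1220 to 1580 CPM in knockdown libraries. Knockdown replicate 1 at 0 h stood apart from its group (its counts differed from those of replicates 2 and 3 by a chi-square of 13.3 and 19 per degree of freedom, and those 2 replicates differed by 2), so results that rest on it are also given without it. CPM means counts per 1000000 gene counts. For single genes it is TMM-scaled, which sets a gene against the typical transcript of its library, and for sums over the histone genes it is not. ERCC-scaled levels set a gene against the spike-in. Because the spike-in was added to purified RNA, they are not levels per cell. At 0 h the spike-in took 0.08567% to 0.1217% of counts in control and 0.1502% to 0.2108% in knockdown libraries.

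Stem-loops were searched in the coding transcripts of GENCODE v29 (GRCh38), since they mark which annotated transcripts reach the normal end of a replication-type histone mRNA. The search took GG followed by 4 bases, a loop of 4 bases, and the exact reverse complement of the first arm, as transcribed. The loop was required to read pyrimidine, T, pyrimidine and then any base, so its form was partly set by the search. It matched 27 of the 65 members present in that annotation, compared with 169 of 19659 protein-coding genes (0.86%). The 4 forms found are shown by 1 or more members each, with the 16 bases of the stem-loop in capitals and the flanking bases in lower case, written as DNA on the transcribed strand.

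H2AC6 (6, + strand): caaaGGCTCTTTTCAGAGCCcccctacc
H2AC25 (1, - strand): taaaGGCTCTTTTCAGAGCCacctacta
H2BC21 (1, - strand): caaaGGCTCTTTTCAGAGCCacccacct
H2BC9 (6, + strand): caaaGGCTCTTTTCAGAGCCacttaatg
H2BC5 (6, + strand): caaaGGCTCTTTTAAGAGCCacgcatgt
H4C8 (6, - strand): caaaGGCCCTTTTCAGGGCCgcccactt
H4C9 (6, + strand): aaaaGGCCCTTTTTAGGGCCcctaagct

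The form shown for H2AC6, H2AC25, H2BC21 and H2BC9 was held by 15 members of the H2A, H2B and H3 families. A form with another loop base, shown for H2BC5, was held by 4 members. The arms of the H4 genes were different, and these came with a pair of loops, shown for H4C8 (5 members) and H4C9 (3 members). Members with no match include 30 whose annotated transcripts hold only the coding sequence, H1-2, H2BC12 and H2AC20 among them, so that no match there says nothing of the gene itself.

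Several of the annotated transcripts ran far past the stem-loop. The stem-loop of H2AC6 began 43 bases after the stop codon and 1114 further bases were annotated behind it. For H2BC9 that distance was 1640 bases, for H2BC21 1729, for H3C10 769, for H4C8 630, for H2AC25 390 and for H2BC5 39. A poly(A) signal hexamer (AATAAA or ATTAAA, transcribed strand) lay in the last 50 bases of a coding transcript for 20 of the 65 members, against 82% of the 19659 protein-coding genes.

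The 69 genes gave 7904 counts in the 18 libraries together, 28.8 CPM, with counts not divided by gene length. No count was found for 5 members (H2AC1, H2BC1, H3C3, H3C4 and H4C7). A further 15 had 1 to 9 counts in all, 34 had 10 to 99 and 15 had at least 100, with a median of 31. H2B genes held 2760 of the counts, H2A genes 2424, H1 genes 1285, H4 genes 893 and H3 genes 542.

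A few members carried most of the signal. H1-2, a linker histone (6, 26055787 to 26056428, GRCh38, a single exon annotated as coding sequence), had 1206 counts. H2AC6, an H2A gene (6, 26124145 to 26139116, up to 2 exons), had 1115. They were followed by H2BC9 with 721, H2BC12 with 716, H2AC25 (1, 228456979 to 228457873) with 627 and H2BC21 (1, 149884459 to 149886652) with 449, and these 6 genes held 61.2% of the counts. The 20 members with a hexamer had a median of 116 summed counts, and the 45 without had a median of 22. For 30 of these 45 the annotation holds only the coding sequence, which leaves no 3′ end to search, and the median of those 30 was 17. The 4 members absent from GENCODE v29 had 36 counts, so the reads were counted against another release. The span counted over for each gene is therefore not known.

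**Figure D1:**
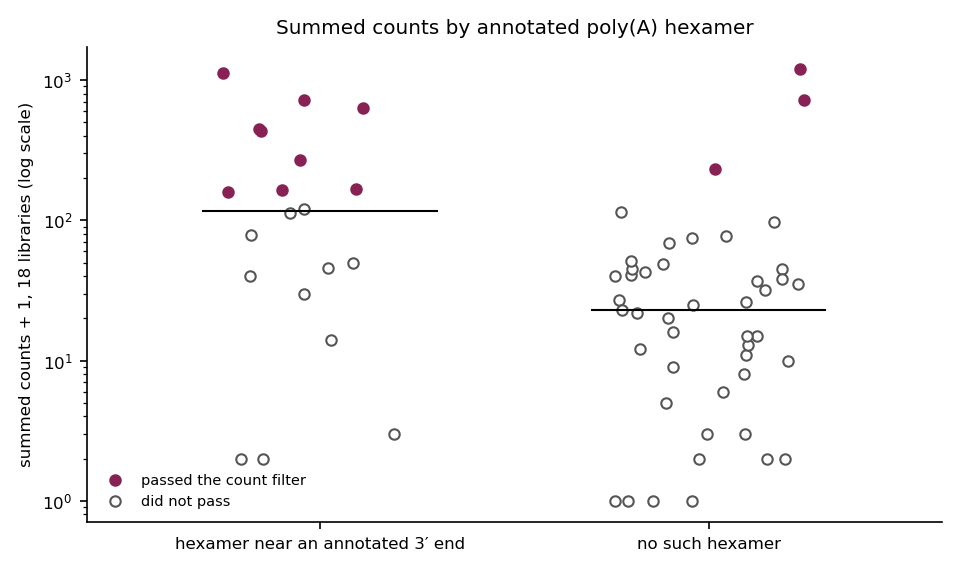
Summed counts over the 18 libraries plus 1 (log scale) for the 65 histone genes in GENCODE v29, split by whether an annotated coding transcript ends within 50 bases of a poly(A) hexamer; filled points passed the count filter and lines are medians. The 20 genes with a hexamer have a median of 116 counts and the 45 without one, many annotated as coding sequence alone, a median of 22.

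A filter on low counts (filterByExpr of edgeR) left 12 members for testing, with 79.1% of the member counts, and the other 57 members held 1650 counts. The 12 are H1-2, H2AC6, H2BC9, H2BC12, H2AC25, H2BC21, H4C8, H2BC5, H2AC20, H3C10, H2BC11 and H3C6. In the libraries of a single genotype, 9 of them passed in both, H3C10 passed in control alone, and H2BC11 and H3C6 passed in knockdown alone. Of the 12, 9 had an annotated hexamer, while H1-2, H2BC12 and H2AC20 had not. H2BC12 is uncertain as a single gene, since only 25.9% of its 50-base windows were unique among annotated transcripts.

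Many members lie head to head, as is typical of H2A and H2B genes. On opposite strands with starts 219 to 357 bases apart, 12 such pairs were annotated, and counts were often unequal within a pair. The pair 357 bases apart was of H3C12 and H2BC17, and each of the others was of an H2A and an H2B gene. H2AC6 had 1115 counts and its neighbour H2BC4 had 111. H2AC25 had 627 against 44 for H2BC26, and H2BC12 716 against 26 for H2AC12. H2BC21 with 449 counts and H2AC20 with 232 were closer, as were H2BC11 with 163 and H2AC11 with 120. Counts are not per length here, and the annotated lengths of the partners differ.

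In control cells the summed level of the 69 genes was 20.4, 22.4 and 16.4 CPM at 0 h. It was 21.9, 21.8 and 19.4 at 1.5 h and 39.6, 40.6 and 40.5 at 3.5 h, so the 3.5 h libraries lay above all others of the genotype. In knockdown cells the sum was 32.3, 30.4 and 28.1 at 0 h, 29.4, 28.8 and 28.0 at 1.5 h, and 31.6, 35.8 and 31.7 at 3.5 h. Before the block the knockdown libraries thus lay above the control libraries, and at 3.5 h below them, without overlap at either time. Against the spike-in the 0 h order was the other way and the groups overlapped, with sums of 23.8, 18.4 and 15.2 per 1000 ERCC counts in control and 21.5, 15.6 and 13.3 in knockdown libraries. At 3.5 h these sums were 16.7, 23.4 and 19.5 in control and 7.29, 8.34 and 5.78 in knockdown libraries.

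**Figure D2:**
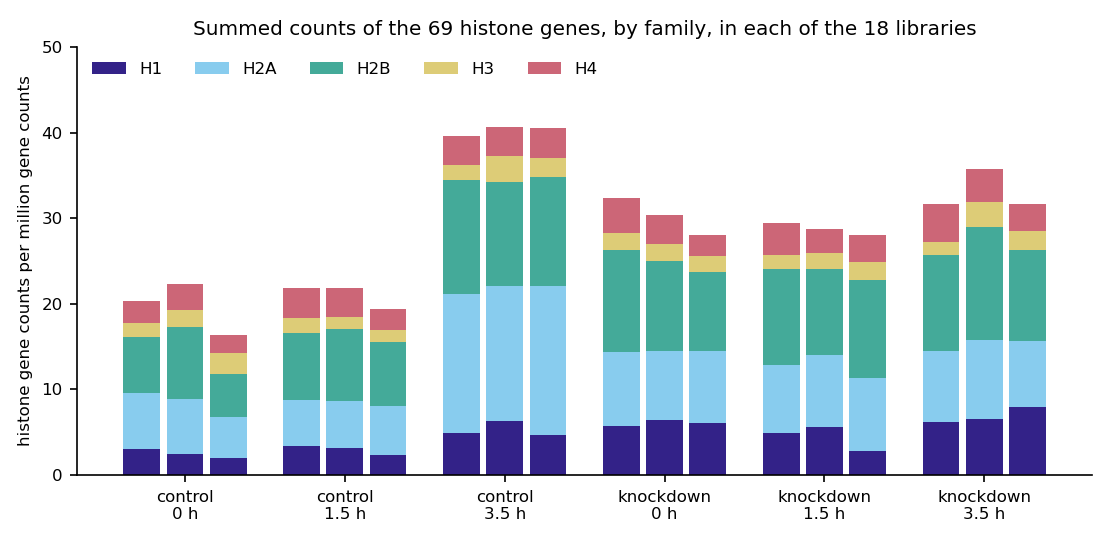
Histone gene counts in CPM (not TMM-scaled) in each of the 18 libraries, stacked by family (H1, H2A, H2B, H3, H4), with 3 bars per group. The control bars at 3.5 h reach 39.6 to 40.6 and the H2A segment takes the largest part of the difference from the control bars at 0 h, with H2AC6 alone going from 73 to 398 of the counts.

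The largest difference between the control sums at 0 and 3.5 h lay in the H2A genes, and most of it in H2AC6 alone. The H2A level went from 5.89 ± 1.02 CPM at 0 h to 16.5 ± 0.817 at 3.5 h (SD, n = 3 each), and their share of the member counts from 29.9% to 41.0%. Without H2AC6 the other 16 H2A genes went from 4.3 ± 0.957 to 7.79 ± 0.629 CPM. H1 genes went from 2.51 ± 0.532 to 5.27 ± 0.891 and H2B genes from 6.69 ± 1.7 to 12.7 ± 0.608 CPM. H3 genes stood at 2.05 ± 0.462 and 2.3 ± 0.664, and H4 genes at 2.57 ± 0.492 and 3.46 ± 0.041. In knockdown cells H2A genes stood at 8.37 ± 0.327 and 8.39 ± 0.764 CPM at the same times. These sums are descriptions, with no test.

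Relative to the spike-in, the summed level in control cells was 70.9% ± 5.99 of its 0 h mean at 1.5 h and, at 3.5 h, 104% ± 17.7 (SD over 3 libraries). The knockdown cells had 69% ± 9.64 and 42.5% ± 7.67 at these times. Leaving out H2AC6, the 3.5 h values were 88.7% ± 15.2 in control and 43.8% ± 8.19 in knockdown. The 57 genes below the filter had 72.1% ± 14.3 and 49.5% ± 13.0. In bulk samples such as these, fewer cells that hold a transcript and less of it per cell cannot be told apart.

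Before the block, 4 of the 12 tested members were higher in NAT10 knockdown cells and 0 were lower, relative to the typical transcript. H2AC6 had 23, 27 and 23 counts in the control libraries and 78, 62 and 55 in the knockdown libraries. In CPM these were 1.5, 1.76 and 1.5 against 4.62, 3.66 and 3.23, so the groups did not overlap. H2AC6 was 2.41-fold higher (log2 fold change 1.27 ± 0.181, SE, edgeR quasi-likelihood test with Benjamini-Hochberg adjustment over 16760 genes, adjusted p = 2.95e-06).

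H1-2, the main H1 gene by counts, had 2.88, 2.15 and 1.82 CPM in control libraries at 0 h. The knockdown libraries had 4.85, 5.61 and 5.28 CPM, all above the control libraries, a log2 fold change of 1.2 ± 0.211 (edgeR adjusted p = 4.75e-05). H2BC12, an H2B gene, had 1.72 ± 0.438 CPM in control and 2.68 ± 0.709 CPM in knockdown libraries. Its log2 fold change was 0.64 ± 0.23 (edgeR adjusted p = 0.0239). H2BC11, another H2B gene, had 1, 9 and 1 counts in control and 16, 13 and 8 in knockdown libraries, so control replicate 2 lay among the knockdown libraries. Its log2 fold change was 1.57 ± 0.538 (edgeR adjusted p = 0.0175). H2BC11 passed the count filter only through the knockdown libraries, where it was high, so the filter favoured this call, though it also passed with no filter (adjusted p = 0.00413).

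The calls of H2BC12 and H2BC11 rested on single libraries. Without knockdown replicate 1 the adjusted p was 0.166 for H2BC12 and 0.0517 for H2BC11 (edgeR). Without control replicate 3 they were 0.13 and 0.0933, and without control replicate 1 that of H2BC11 was 0.0975. H2AC6 and H1-2 passed whichever library was left out (largest adjusted p 5.19e-05 and 0.000578).

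Over the 16760 genes of the fit, 23.8% passed as higher and 28.3% as lower in this comparison, with a median log2 fold change of -0.04. The share of higher calls among the members, 4 of 12, was not far from this background. Under ERCC scaling, where 5.58% of genes were higher, 64.1% lower and the median was -0.71, H2AC6 stayed higher (0.63, edgeR adjusted p = 0.035). There H2AC25 (-1.03, edgeR adjusted p = 0.0015) and H2BC9 (-0.63, edgeR adjusted p = 0.0428) were lower, and H1-2 did not pass (0.51, edgeR adjusted p = 0.0667). Summed fibroblast markers ran from 670 to 726 CPM in control and from 1220 to 1580 CPM in knockdown libraries at 0 h, and neural ectoderm markers from 504 to 642 and from 1110 to 1180 CPM. Of 8 listed fibroblast markers 5 were tested, of which 4 were higher and 1 lower, and of 5 neural markers 3 were tested and all 3 were higher. The part of either in the histone differences was not tested.

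At 1.5 h of actinomycin D, 3 members were higher in knockdown cells and 0 were lower. H2AC6 had 2.08 ± 0.0383 CPM in control libraries and 3.78 ± 0.748 CPM in knockdown libraries (means ± SD of 3), which is a log2 fold change of 0.86 ± 0.174 (edgeR adjusted p = 0.000215). H2BC12 was higher in knockdown cells by 0.73 ± 0.227 on the log2 scale (edgeR adjusted p = 0.009, but 0.0588 without control replicate 3). H2BC11 was higher by 1.36 ± 0.538 (edgeR adjusted p = 0.036). That call was lost in 5 of the 6 fits that left out a library of the groups compared. The gene passed the filter only through knockdown libraries. H1-2, with 2.9 ± 0.486 and 3.92 ± 1.2 CPM, did not pass (0.44 ± 0.216, edgeR adjusted p = 0.0908). The shares over the whole fit were 28.4% higher and 26.2% lower. Under ERCC scaling, with 8.2% of genes higher and 49.7% lower, 0 members were higher and H2BC9 was lower (-0.97, edgeR adjusted p = 0.00129).

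At 3.5 h H2AC6 had turned, from higher in knockdown cells at the earlier times to lower. H2AC6, H2AC25, H2BC21, H3C10 and H2BC9 were lower in knockdown cells, and H3C6 was higher. H2AC6 had 9.4, 9.59 and 9.95 CPM in the control libraries and 3.71, 4.11 and 4.04 CPM in the knockdown libraries. The control libraries lay more than 5 CPM above every knockdown library. H2AC6 was lower in knockdown cells by 1.29 ± 0.135 on the log2 scale (edgeR adjusted p = 1.74e-08). Between 0 and 3.5 h its mean went from 1.59 to 9.65 CPM in control cells and from 3.84 to 3.95 CPM in knockdown cells.

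H2AC25, an H2A gene of the small group at 1q42, had 5.1, 4.87 and 5.37 CPM in control and 1.69, 2.15 and 1.69 CPM in knockdown libraries. Its groups did not overlap, and it was lower in knockdown cells by 1.47 ± 0.19 on the log2 scale (edgeR adjusted p = 4.43e-07). H2BC21, an H2B gene at 1q21, had 3.28, 3.34 and 2.98 CPM against 1.35, 1.62 and 1.42 CPM. It was lower in knockdown cells by 1.13 ± 0.201 on the log2 scale (edgeR adjusted p = 3.77e-05), also without overlap.

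H3C10, an H3 gene, had 1.02, 1.31 and 0.872 CPM in control and 0.472, 0.673 and 0.472 CPM in knockdown libraries. It was lower in knockdown cells by 0.97 ± 0.298 on the log2 scale (edgeR adjusted p = 0.0113, but 0.0799 without control replicate 2). H3C10 passed the filter only through the control libraries, where it was high, and with no filter its adjusted p was 0.0375. H2BC9 was at the threshold (-0.53 ± 0.23, edgeR adjusted p = 0.0496), and leaving out any of control replicates 2 and 3 or knockdown replicates 1, 2 and 3 lost the call, with adjusted p of up to 0.164. H3C6 was the exception in direction, with 2, 4 and 2 counts in control and 5, 18 and 18 in knockdown libraries, a log2 fold change of 2.2 ± 0.564 (edgeR adjusted p = 0.0017). H3C6 passed the filter only through the knockdown libraries, where it was high. It was not tested with a pooled mean of at least 10 counts or with the compared groups alone, and with no filter its adjusted p was 5.23e-05.

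The remaining 6 tested members did not pass at 3.5 h, among them H1-2 with 5.53 ± 0.643 and 6.52 ± 1.25 CPM and H2BC12 with 3.22 ± 0.751 and 3.24 ± 0.174 CPM. The shares over the whole fit were 26.4% lower and 35% higher at this time. Under ERCC scaling 71.7% of genes were lower and 4.71% higher, 9 of the 12 members were lower, and H3C6 did not pass (1.14, edgeR adjusted p = 0.0569). The values of each library are drawn in the plot of the 6 genes with the most counts.

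**Figure D3:**
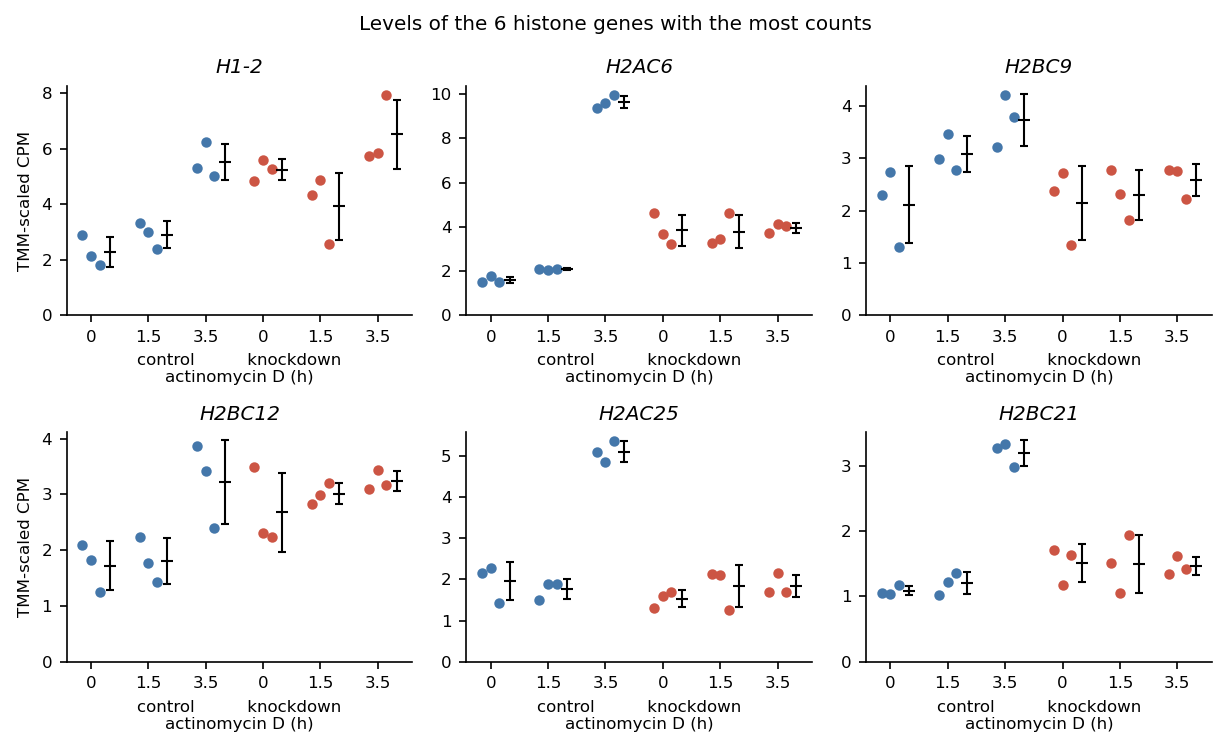
TMM-scaled CPM of the 6 histone genes with the most counts in each library (points, control blue, knockdown red), with group mean and SD (black), against hours of actinomycin D. H2AC6, H2AC25 and H2BC21 stand at 9.65, 5.11 and 3.2 CPM on average in control cells at 3.5 h and at 3.95, 1.84 and 1.46 CPM in knockdown cells.

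Most transcripts decline once transcription is blocked, so the time comparison within each genotype was scaled to the spike-in. In control cells H2AC6 rose between 0 and 3.5 h. Its ERCC-scaled level was 88.5%, 77.9% and 84.0% of the 0 h mean at 1.5 h, and 233%, 326% and 283% at 3.5 h. All 3.5 h libraries lay above the 0 h libraries, which spread from 90.7% to 115%. The log2 fold change was 1.49 ± 0.267 (edgeR adjusted p = 5.82e-08), against a median of -1.14 over all genes, of which 0.591% were called higher and 81.1% lower.

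H3C6 fell in control cells, from 4, 9 and 15 counts at 0 h to 2, 4 and 2 at 3.5 h. Its ERCC-scaled log2 fold change was -2.71 ± 0.574 (edgeR adjusted p = 4.99e-06). These counts were tested only because the gene passed the filter through the knockdown libraries. With the compared groups alone, or with a pooled mean of at least 10 counts, H3C6 was not tested. The other 10 tested members did not pass in either direction. Their log2 fold changes ran from -0.44 ± 0.337 for H4C8 to 0.44 ± 0.318 for H2BC21. H2AC25 had 56.5% ± 5.48 of its 0 h mean at 1.5 h and, at 3.5 h, 119% ± 15.9 (SD over 3 libraries). H2BC21 had 69.5% ± 8.4 and 135% ± 25.7, and H1-2 78.3% ± 15.2 and 109% ± 29.4.

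Relative to the typical transcript in place of the spike-in, 9 of the 12 members were higher in control cells at 3.5 h than at 0 h and 1, H3C6, was lower. H2AC6 was then 6.06-fold higher (log2 fold change 2.60 ± 0.159, edgeR adjusted p = 9.72e-13), H2BC21 2.93-fold and H2AC25 2.6-fold. Under this TMM scaling 31.6% of the 16760 genes were higher and 34.6% lower.

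In knockdown cells 11 of the 12 members fell between 0 and 3.5 h relative to the spike-in, where 97.3% of all genes fell and 0% rose. H2AC6 had 67.4% ± 21.9 of its 0 h mean at 1.5 h and 35.1% ± 4.53 at 3.5 h, a log2 fold change of -1.49 ± 0.251 (edgeR adjusted p = 5.16e-09). H1-2 had 50.6% ± 10.8 and 42.8% ± 1.99, with a log2 fold change of -1.21 ± 0.236 (edgeR adjusted p = 3.55e-07). The called members lay between -0.98 ± 0.356 for H2BC5 and -1.56 ± 0.322 for H2BC21, near the median of -1.47 over all genes. H2AC20, an H2A gene, did not pass (-0.71 ± 0.392, edgeR adjusted p = 0.0726). Under TMM scaling 0 of the 12 members passed in knockdown cells, where 25.1% of genes were higher and 22.8% lower, and the lowest adjusted p was 0.063, for H2AC20 (log2 fold change 0.76).

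Some of these falls rested on single libraries. H2BC11 and H3C6 did not pass without knockdown replicate 1 at 0 h (edgeR adjusted p = 0.11 and 0.129). H3C6 also failed without knockdown replicate 1 at 3.5 h (0.0712) and H2BC5 without knockdown replicate 3 at 3.5 h (0.0538). The time courses of all 12 genes are plotted as percentages of the 0 h mean.

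**Figure D4:**
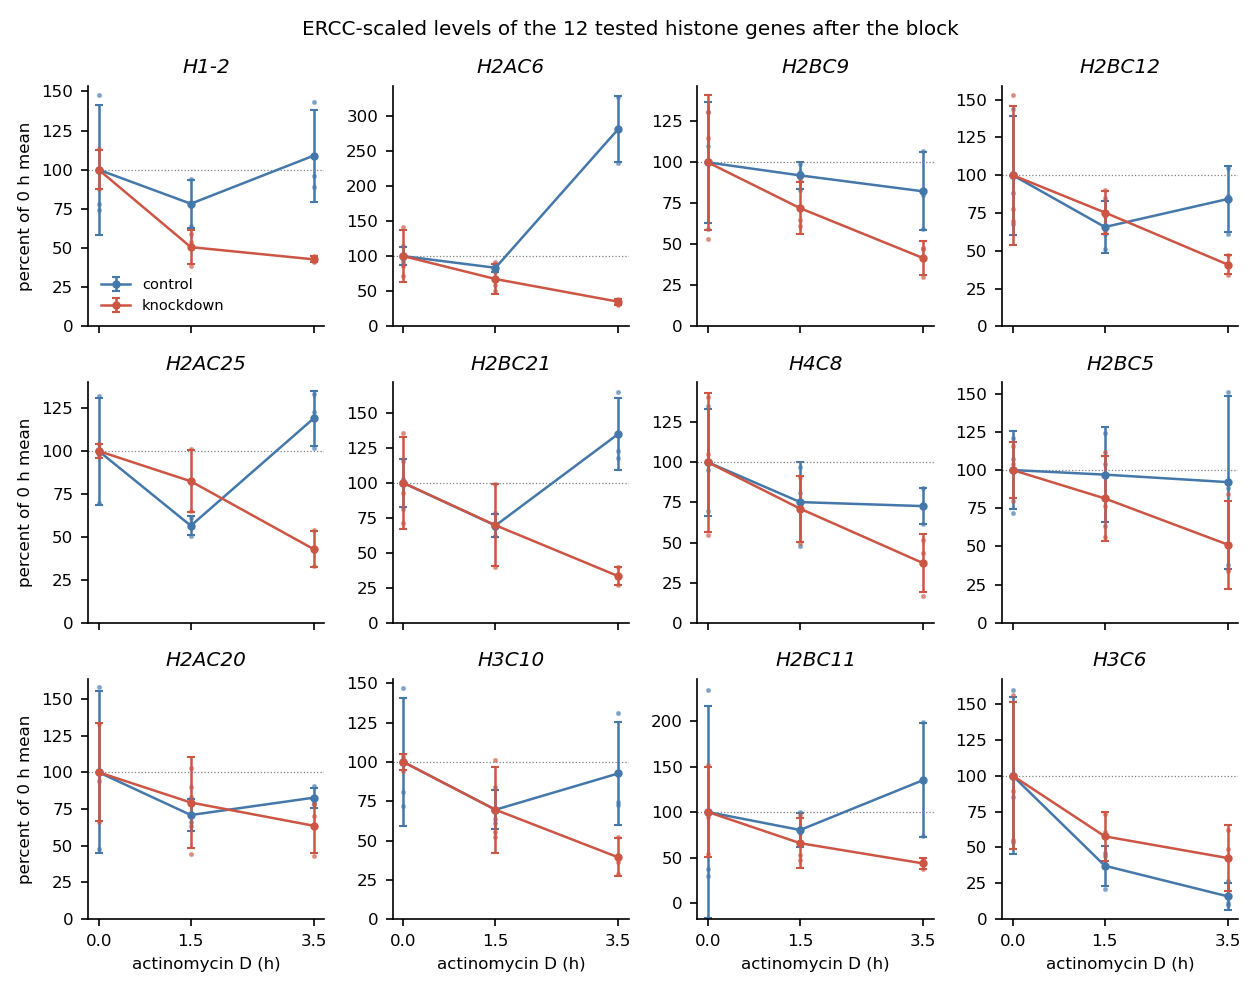
ERCC-scaled levels of the 12 tested histone genes as a percentage of the same genotype's 0 h mean against hours of actinomycin D (lines are means with SD, small points are single libraries, 3 per group). In control cells H2AC6 reaches 281% at 3.5 h, whereas in knockdown cells it has 35.1% left.

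The change from 0 to 3.5 h differed between genotypes for 4 of the 12 members, all in the direction of a lower value in knockdown cells. The difference on the log2 scale, knockdown minus control, was -2.98 ± 0.366 for H2AC6 (edgeR adjusted p = 9.42e-13) and -2.0 ± 0.451 for H2BC21 (edgeR adjusted p = 0.000538). For H2AC25 it was -1.49 ± 0.412 (edgeR adjusted p = 0.00649) and for H1-2 -1.36 ± 0.351 (edgeR adjusted p = 0.00304). All 4 passed with each library left out in turn, the largest adjusted p being 0.0472 for H2AC25.

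Among all genes 9.51% were lower in this contrast and 2.68% higher, with a median of -0.32. Under TMM scaling, with 12.5% of genes lower and 24.3% higher, the same 4 members were lower, and H3C6 was higher (1.99 ± 0.737, edgeR adjusted p = 0.0377). H3C6 passed the filter only through the knockdown libraries, where it was high at 3.5 h, so the filter favoured this call. The spike-in fit gave H3C6 a difference of 1.56 ± 0.721 that did not pass (edgeR adjusted p = 0.127). H2BC12, H2BC9 and H4C8 had differences of -1.04 ± 0.395, -0.96 ± 0.394 and -0.97 ± 0.456 and did not pass either.

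**Figure D5:**
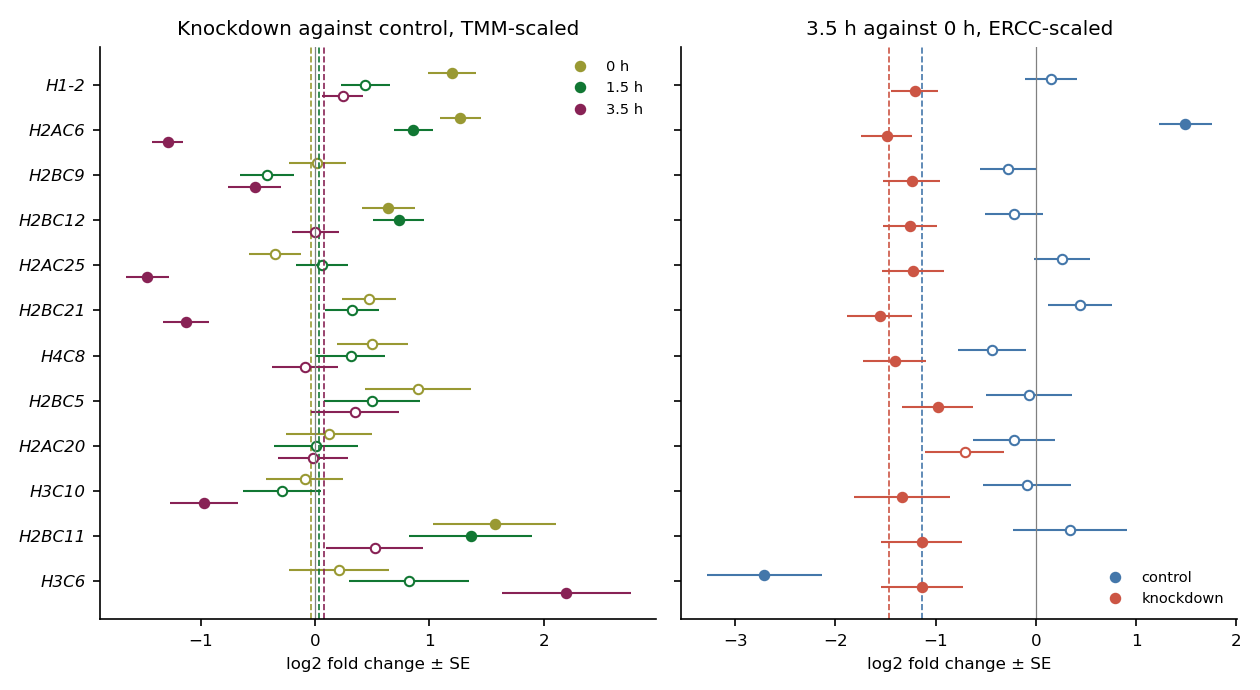
Log2 fold changes with SE for the 12 tested histone genes; left, knockdown against control at 0, 1.5 and 3.5 h (TMM-scaled), right, 3.5 h against 0 h in each genotype (ERCC-scaled). Filled points passed the test at an adjusted p of 0.05, open points did not, and dashed lines are medians over all 16760 genes (-1.14 in control and -1.47 in knockdown on the right).

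Without the filter on low counts, 64 members with at least 1 count entered the fit. At 0 h the knockdown calls then gained H2BC8, with a log2 fold change of 1.87 (edgeR adjusted p = 0.0481), where 10.9% of the 39992 genes in the fit were higher. At 3.5 h they gained H2AC17, with a log2 fold change of -2.88 (edgeR adjusted p = 0.0447), where 11.3% were lower. The calls in control cells over time gained H4C16, an H4 gene with 76 counts in all, which fell by 1.72 on the log2 scale (edgeR adjusted p = 0.0315), where 36.6% of genes were lower. In knockdown cells 17 members fell in place of 11, with H2AC11, H2AC17, H2BC8, H4C14, H4C16 and H4C9 added, and 48.4% of genes were lower. For H4C14 this rested on 5 counts in knockdown replicate 3 at 0 h, with 0 in each knockdown library at 3.5 h. The genotype difference held the same 4 genes, and 2.66% of genes were lower.

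The authors' deposited table of half-lives holds 12 of the 69 genes. For H1-2, H2AC6, H2AC25 and H2BC21 it gives no control half-life, as for 3.78% of the 12797 genes in that table, and its knockdown half-lives are 2.32, 2.38, 3.14 and 2.35 h. The other 8 have both. In the authors' deposited table H2BC9 has 17.1 h in control and 2.85 h in knockdown, H2BC12 20.9 and 2.86 h, and H4C8 8.6 and 2.59 h. H3C10 has 301 h and 2.63 h there, and H2BC5 72 h and 3.73 h, control values far beyond the 3.5 h observed.

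All 8 log2 ratios of knockdown to control half-life in the authors' deposited table are negative, from -1.19 for H4C9 to -6.84 for H3C10. Of all genes with both half-lives 67.4% have a negative ratio, with a median of -0.24. The median half-life in the authors' deposited table is 3.05 h in control and 2.56 h in knockdown. These values share the libraries tested above and have no error of their own, so they are not independent of the time courses.

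The replacement variants are histones made also outside replication, most of them from ordinary polyadenylated mRNAs, and 11 of 16 listed genes were tested. In control cells between 0 and 3.5 h, 6 fell and 0 rose relative to the spike-in, with a median of -0.68. All genes had a median of -1.14, and 81.1% of them fell. The linker histone gene H1-10 did not pass there (-0.26 ± 0.198), nor did the H3.3 gene H3-3A (-0.34 ± 0.195). H2AX, the variant phosphorylated at DNA breaks, fell by 1.61 ± 0.202, H2AZ1 by 1.07 ± 0.194 and H3-3B by 0.90 ± 0.194 on the log2 scale. Under TMM scaling 8 of the 11 were higher and 1 lower at 3.5 h in control cells, and H3-3B turned to 0.23. Over all genes 31.6% were higher and 34.6% lower there.

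Of the 11 variants, 4 had a lower change over time in knockdown cells and 0 a higher one. Over all genes these shares were 9.51% and 2.68%. H1-10 differed by -1.13 ± 0.281 (edgeR adjusted p = 0.00215). In control cells H1-10 went from 44.8 ± 7.81 to 81.8 ± 5.17 CPM, and in knockdown cells from 52.9 ± 10.5 to 56.9 ± 0.788 CPM. H2AX, H2AZ1, H3-3A and H3-3B did not pass in this contrast. At 0 h 5 variants were lower in knockdown cells and 1 higher, with a median of -0.27, where 28.3% of all genes were lower and 23.8% higher. Under ERCC scaling all 11 were lower, with a median of -0.98, as were 64.1% of all genes. The macroH2A gene MACROH2A1 stood at -1.22 ± 0.052 and H2AZ1 at -0.63 ± 0.061 (edgeR adjusted p = 4.08e-15 and 7.16e-09).

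Of 25 genes for histone gene transcription and stem-loop processing, 13 were lower and 3 higher in knockdown cells at 0 h. Their median was -0.2 against -0.04 over all genes, of which 28.3% were lower and 23.8% higher. SLBP, which binds the stem-loop, stood at -0.29 ± 0.064 (edgeR adjusted p = 0.000503). CASP8AP2, needed for histone gene expression, stood at -0.42 ± 0.089 (edgeR adjusted p = 0.000337). The U7 ribonucleoprotein subunit LSM11 and its partner zinc finger protein ZNF473 were higher (0.48 ± 0.156 and 0.33 ± 0.13, edgeR adjusted p = 0.0125 and 0.0376), while LSM10, the second U7-specific subunit, and NPAT, the activator of histone gene transcription, did not pass (0.03 ± 0.075 and -0.02 ± 0.113). The most significant of the list were WDR33, a polyadenylation factor (-0.38 ± 0.053), and POU2F1, which activates H2B promoters (-0.52 ± 0.073). Under ERCC scaling 23 of the 25 were lower and 0 higher, so LSM11 and ZNF473 were not called higher there. Over all genes 64.1% were lower under that scaling.

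Of the same list 24 fell and 0 rose in control cells after the block relative to the spike-in (12 lower and 8 higher under TMM scaling). Over all genes 81.1% fell relative to the spike-in, and under TMM scaling 34.6% were lower and 31.6% higher. SLBP went from 62.7 ± 1.79 CPM to 27.0 ± 0.794 CPM between 0 and 3.5 h in control, and from 51.1 ± 3.65 to 46.1 ± 0.591 CPM in knockdown. At 3.5 h it was thus higher in knockdown cells (0.77 ± 0.07, edgeR adjusted p = 1.57e-09), but not under ERCC scaling (-0.29, edgeR adjusted p = 0.174). In the genotype difference 2 of the 25 passed as higher, FIP1L1 (1.24 ± 0.301, edgeR adjusted p = 0.00157) and CSTF1 (0.91 ± 0.303, edgeR adjusted p = 0.0282), both of general 3′ end formation, and SLBP did not (0.67 ± 0.283, edgeR adjusted p = 0.0953). The share over all genes there was 2.68% higher and 9.51% lower. Under TMM scaling 9 of the 25 were higher and 3 lower, against 24.3% and 12.5% of all genes.

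Of 18 genes of histone mRNA decay, 8 were lower and 4 higher at 0 h in knockdown cells, with a median of -0.19, where 28.3% of all genes were lower and 23.8% higher. Under ERCC scaling 15 of the 18 were lower and 0 higher, with a median of -0.84. Over all genes 64.1% were lower and 5.58% higher there. ERI1, the exonuclease that trims histone mRNA at the stem-loop, was higher at all times, from 0.57 ± 0.083 at 0 h to 1.74 ± 0.093 at 3.5 h (edgeR adjusted p = 3.84e-06 and 1.15e-13). Under ERCC scaling ERI1 passed at 3.5 h (0.67, edgeR adjusted p = 0.00192) and not at 0 h (-0.09). TUT7, a uridyl transferase of histone mRNA, did not pass at 0 h (-0.18 ± 0.08, edgeR adjusted p = 0.0667). TENT4B and TENT4A, noncanonical poly(A) polymerases, stood at -1.01 ± 0.102 and -0.52 ± 0.071. In control cells 16 of the 18 fell over time and 0 rose (8 lower and 9 higher under TMM scaling), and in the genotype difference 2 were lower, LSM7 (-0.94 ± 0.279) and DCP2 (-0.85 ± 0.277), both of mRNA decapping. Over all genes 81.1% fell over time in control cells, and 9.51% were lower and 2.68% higher in the genotype difference. Under TMM scaling that contrast had 5 of the 18 higher and 4 lower, against 24.3% and 12.5% of all genes.

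Of 25 cap-binding and nuclear exosome factors, which trim and clear nuclear transcripts, 13 were lower and 0 higher in knockdown cells at 0 h, with a median of -0.23. Over all genes 28.3% were lower and 23.8% higher there. NCBP1, a subunit of the nuclear cap-binding complex, stood at -0.61 ± 0.059, and the nuclear poly(A)-binding protein gene PABPN1 at -0.56 ± 0.064 (edgeR adjusted p = 7.19e-09 and 1.05e-07). All 25 were lower under ERCC scaling, as were 64.1% of all genes, and all 25 fell in control cells over time, as did 81.1%. Under TMM scaling 14 were lower and 6 higher over time, against 34.6% and 31.6% of all genes. In the genotype difference 2 were higher and 3 lower, among them ZCCHC8 (0.95 ± 0.295) and ZFC3H1 (-1.35 ± 0.288), both of complexes that work with the nuclear exosome. The shares over all genes there were 2.68% higher and 9.51% lower. Under TMM scaling 12 of the 25 were higher in this contrast and 4 lower, against 24.3% and 12.5% of all genes.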

How the data were processed

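Raw counts for each gene and ERCC transcript were deposited by the authors, with a column for each of 18 libraries. Build hg38 and the tools featureCounts 2.0.3, SAMtools 1.12, HISAT2 2.2.1 and fastp 0.21.1 are named, per the submitters' processing notes. Strand setting and annotation release are not given there, so members with near-identical copies or overlapping genes are uncertain. The authors also deposited a normalized signal per gene and library, half-lives in hours (1 per gene and genotype) and the log2 ratio of the half-lives. The signal was not tested here.

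Members were found by symbol, and 65 of 69 had an identifier in GENCODE v29. Tests used edgeR 4.0.16 (quasi-likelihood F test, Benjamini-Hochberg over 16760 genes, threshold 0.05) in one fit to 18 libraries, with TMM scaling between genotypes and summed ERCC counts over time. SEs are the absolute log2 fold change divided by the square root of F. Scripts were tested on simulated data. With single-digit counts in many libraries, counting error alone limits most members. The members and lists were chosen with earlier results of these data known. Named with values were the 6 members of most counts and up to 6 others that passed a test. From the lists, 14 preset genes and the 2 of smallest p were named, except for 1 gene that is not reported here. No pairing by replicate number was seen in the counts, and the labels do not say what the number marks. Alternatives were the other scaling, DESeq2 1.42.0 size factors and Wald test, other filters, the compared groups alone, a replicate block and leaving out each library.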

Additional observations from a re-analysis of the deposited data

Results flagged for a closer look

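The change between 0 and 3.5 h of actinomycin D differed between the genotypes for 4 histone genes, by a test of the difference itself in the ERCC-scaled fit (edgeR, 3 libraries per group). Knockdown minus control on the log2 scale, the difference was -2.98 for H2AC6, -2.0 for H2BC21, -1.49 for H2AC25 and -1.36 for H1-2. In control cells the ERCC-scaled levels at 3.5 h were 281%, 135%, 119% and 109% of the 0 h mean for these genes, and in knockdown cells 35.1%, 33.3%, 42.9% and 42.8%. The same 4 genes have no control half-life in the authors' deposited table, which rests on the same libraries and is not independent of this test.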

How the results depend on the processing

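Counts of called members depended most on the scaling. With the ERCC scale the knockdown had 1 member higher and 2 lower at 0 h, 0 and 1 at 1.5 h, and 0 and 9 at 3.5 h. With TMM, 9 members were higher in control cells at 3.5 h, 0 were lower in knockdown cells, and 1 was higher in the genotype difference. Without the low-count filter 2 members were lower in control cells over time and 17 in knockdown cells. With a mean of at least 10 counts, 0 were higher and 3 lower in the knockdown at 3.5 h, and 0 were lower in control cells over time. With the compared groups alone, 0 were higher in the knockdown at 3.5 h and 0 lower in control cells over time. H3C6, the gene with these calls in the main fit, was not tested in either setting. Leaving out 1 library gave 2 to 4 members higher at 0 h, 1 to 3 at 1.5 h, and 3 to 5 lower at 3.5 h. Over time it gave 1 to 2 higher in control cells, 10 to 12 lower in knockdown cells, and 4 to 7 lower in the genotype difference, with 7 without control replicate 1 or knockdown replicate 3 at 0 h. The cause of the other changes was not tested.

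Signs turned under the other scaling. On the ERCC scale H2BC9 (-0.63) at 0 h, and H1-2 (-0.85) and H2BC12 (-1.05) at 3.5 h, were lower in the knockdown, and H2BC12 at 0 h was at -0.01 and no longer called. With TMM the control change over time was 0.82 for H2BC9, 0.9 for H2BC12, 0.9 for H2AC20 and 1.02 for H3C10. The knockdown change with TMM was 0.31 for H1-2, 0.04 for H2AC6, 0.27 for H2BC9, 0.27 for H2BC12, 0.26 for H2AC25, 0.08 for H4C8, 0.5 for H2BC5, 0.13 for H3C10, 0.37 for H2BC11 and 0.38 for H3C6. A further 56 uncalled values changed sign and stayed uncalled.

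Without H1-2 the summed level in CPM was 18.3 and 35.3 in control cells at 1.5 and 3.5 h, and 24.4, 24.6 and 26.6 in knockdown cells at 0, 1.5 and 3.5 h. TMM-scaled, the sum over all 69 genes, H1-2 included, was 44.6 in control cells at 3.5 h. In knockdown cells it was 27.2 and 27.5 at 0 and 1.5 h. Libraries of the same replicate number shared little deviation (correlations of deviations -0.208 to 0.153, 4 of 45 pairs over 0.1). This cannot show whether they were handled together. A fit with the replicate block gave 4 members higher at 0 h and changed 0 of 84 results. Depth limits all of these values, since 57 of the 69 genes had too few counts to test.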
